A study of Mus musculus and Homo sapiens with 59 samples.

Results

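The sterol regulatory element-binding protein (SREBP) pathway was followed through 32 mouse genes chosen by name: 22 genes of cholesterol synthesis and sterol handling, 7 genes of fatty acid and lipid synthesis, and the 3 regulator genes Srebf1, Srebf2 and Scap. All 32 were found among the 19407 genes of the mouse table and 29 among the 22192 genes of the human table, where 21 sterol, 5 fatty acid and 3 regulator genes were matched by the same symbol in capitals. CYP51, SCD1 and SCD2 had no match there, and the human genes CYP51A1 and SCD are given beside the members without being counted. Every member in each table passed the filter on low values in every comparison.

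SREBP proteins are made as precursors held in the membrane of the endoplasmic reticulum. When membrane sterol is low, the escort protein SCAP carries the precursor to the Golgi, where proteases release a fragment that enters the nucleus and binds sterol regulatory elements in promoters, and INSIG proteins hold the complex back when sterol is plentiful. SREBP2, the product of Srebf2, acts mainly on cholesterol genes and SREBP1, the product of Srebf1, mainly on fatty acid genes.

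Polyadenylated RNA of 59 libraries in 30 groups was used: 35 libraries of NIH3T3 mouse fibroblasts, 16 of LLC cells, a mouse lung carcinoma line, 4 of HT29 colorectal carcinoma cells and 4 of BxPC3 pancreatic carcinoma cells. The plasma membrane was opened by a pore-forming fragment of MLKL, the executioner protein of necroptosis, or of GSDMD, that of pyroptosis, or by digitonin, a detergent that binds membrane cholesterol. The study's title gives signalling from the loss of plasma membrane integrity as its subject.

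MLKL cells carried the construct hMLKL1–181-2Fv and were given the dimerizer AP20187 at 100 nM for 1 h, in DMEM or in calcium-free DMEM, and GSDMD cells carried mGSDMD1-276-HBD and were given 4OHT at 50 nM for 2.5 h. Parental NIH3T3 cells, with no construct, were given AP20187, and parental LLC cells 4OHT. The groups named siCTR, siPKC, p65ko and noko were NIH3T3 cells that all carried the MLKL construct. NIH3T3 and LLC cells received digitonin at 55 µg/mL over 3 h, and HT29 and BxPC3 cells received it at 40 µg/mL over 2 h, all labelled as having no construct. Each treated group had its own untreated (NT) group. Of the 30 groups 29 held 2 libraries, and siPKC with AP20187 held 1. The labels do not say whether the constructs were carried by clones or pools, nor which PKC gene siPKC targets.

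Expression is in TPM, a transcript abundance scaled by transcript length and library total. A log2 difference is the difference of log2(TPM + 1) between the first and the second group named, which understates the change of low genes, and a gene rose or fell where the Benjamini-Hochberg adjusted p of limma was under 0.05 over all genes tested in the comparison. Replicates correlated at 0.989 to 0.995 across genes, which are not independent of each other. Nothing in the labels says that replicates came from separate cultures, and p-values thus reflect the spread among these libraries, which may be technical. Rela, which encodes p65, had 13.6 and 14.1 TPM in untreated p65ko cells, against 49.2 and 49.7 TPM in untreated noko cells. Gsdmd had 1135 to 1230 TPM in untreated NIH3T3 GSDMD cells and 376 and 377 TPM in untreated LLC GSDMD cells, against 5.44 and 6.14 TPM in untreated parental NIH3T3 cells and 22.6 TPM in each untreated parental LLC library. The LLC libraries of the digitonin experiment, labelled as having no construct, went against that label. Gsdmd had 326 and 336 TPM with digitonin and 333 and 337 TPM without, near the LLC GSDMD cells. Prkca averaged 7.75 TPM in untreated siPKC and 31.8 TPM in untreated siCTR cells. The fibroblast genes Col1a1 and Thy1 were at 144 TPM or more and 105 TPM or more in every NIH3T3 library. In LLC cells Col1a1 was at or under 0.262 TPM and Thy1 at 0. Col1a2 and Pdgfrb were at or under 0.342 and 1.70 TPM there. The fibroblast genes Col3a1 and Vim were not low in LLC cells. Col3a1 reached 276 TPM in LLC and 140 TPM in NIH3T3 libraries. Vim was at 2567 TPM or more in LLC and 3685 TPM or more in NIH3T3 libraries. The keratin genes Krt8 and Krt18 were at or above 80.7 and 159 TPM in LLC cells. The epithelial marker Epcam was at or under 0.0510 TPM there. The leukocyte gene Ptprc was at or under 0.159 TPM in both mouse lines. Other leukocyte genes were not as low: Cd68 had 5.13 to 19.3 TPM in NIH3T3 and 2.08 to 8.66 TPM in LLC libraries. Csf1r reached 5.76 TPM in NIH3T3 and 1.04 TPM in LLC libraries. Fewer cells expressing a gene and less of its RNA per cell cannot be told apart in bulk RNA.

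Promoter windows (RefSeq, GRCm38.p6, 250 bases before to 50 after the annotated start) were held for 26 of the 32 members. The windows of 4 of them are shown because their genes take different courses below: Insig1 and Idi1 rose in every permeabilization comparison, Hmgcs1 rose with MLKL and digitonin and little or not with GSDMD, and Mvk fell in 7 of 12. They lie at chr13:119690101-119690400 (Hmgcs1), chr5:28071162-28071461 (Insig1), chr13:8885356-8885655 (Idi1) and chr5:114444019-114444318 (Mvk), all on the plus strand, and are written 5′ to 3′ with capitals for CACNCCAC, a core of the sterol regulatory element, and for CCAAT, the binding motif of NF-Y, on either strand.
Hmgcs1: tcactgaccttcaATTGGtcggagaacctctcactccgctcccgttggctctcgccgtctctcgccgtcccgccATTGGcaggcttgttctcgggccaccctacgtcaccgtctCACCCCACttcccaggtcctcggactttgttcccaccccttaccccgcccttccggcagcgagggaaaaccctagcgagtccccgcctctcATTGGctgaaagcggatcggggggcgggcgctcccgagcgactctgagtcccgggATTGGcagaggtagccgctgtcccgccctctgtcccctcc
Insig1: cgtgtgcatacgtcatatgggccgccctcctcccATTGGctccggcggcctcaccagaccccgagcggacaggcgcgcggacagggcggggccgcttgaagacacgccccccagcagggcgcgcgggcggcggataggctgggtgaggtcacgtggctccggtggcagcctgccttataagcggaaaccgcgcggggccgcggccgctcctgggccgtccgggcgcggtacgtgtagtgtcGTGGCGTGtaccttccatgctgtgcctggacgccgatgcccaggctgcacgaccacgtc
Idi1: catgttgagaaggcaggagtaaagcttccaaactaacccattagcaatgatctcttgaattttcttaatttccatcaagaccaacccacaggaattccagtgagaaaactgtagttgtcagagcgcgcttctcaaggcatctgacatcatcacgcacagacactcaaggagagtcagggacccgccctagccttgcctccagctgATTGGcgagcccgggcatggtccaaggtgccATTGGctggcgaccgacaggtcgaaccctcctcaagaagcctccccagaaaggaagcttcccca
Mvk: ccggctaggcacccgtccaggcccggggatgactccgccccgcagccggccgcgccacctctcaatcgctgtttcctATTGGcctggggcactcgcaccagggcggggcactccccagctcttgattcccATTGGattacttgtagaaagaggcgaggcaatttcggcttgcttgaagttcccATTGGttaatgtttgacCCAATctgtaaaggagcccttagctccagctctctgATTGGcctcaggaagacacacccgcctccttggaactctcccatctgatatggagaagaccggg
The core CACNCCAC was found in the windows of 3 of the 26 members (Hmgcs1, Insig1 and Acat2) and in 6.24% of all 32851 windows. The longer TCACNCCAC, which contains the core, was found in 1 member, Hmgcs1, and in 1.24% of all windows. CCAAT was found in 21 of the 26 members and in 37.4% of all windows, and the GC box GGGCGG in 20 of the 26 and in 35.7%. Some members had several windows, and a member was counted where any of its windows held the motif. Counted by window, as the shares of all windows are, 3 of the members' 32 windows held the core and 1 the longer motif. CCAAT was in 22 of these 32 windows and the GC box in 23. The windows of Idi1 and Mvk held CCAAT but not the core. Bases just after the annotated start were found in a GENCODE transcript of the gene for Insig1, Idi1 and Mvk, but not for Hmgcs1. These are matches of letters, and which of them are bound was not measured.

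A set of 6 sterol genes rose in every permeabilization comparison in which they were measured, and the other members differed by agent and line. There were 12 comparisons of permeabilized with untreated cells: 6 with MLKL in calcium-containing medium, 2 with GSDMD and 4 with digitonin. Insig1, which encodes the sterol-sensitive retention protein, Sqle (squalene epoxidase), Idi1 (isopentenyl diphosphate isomerase), Sc5d (a sterol desaturase) and Msmo1 (methylsterol monooxygenase) rose in all 12, and Cyp51 (lanosterol demethylase) in the 10 in which it was measured. Leaving out the LLC digitonin comparison could only add members to these 6, and it added none. Of the 11 comparisons then left, 9 had a Cyp51 value. Hmgcs1, which makes HMG-CoA for the mevalonate pathway, and Srebf2 rose in 11, and Fasn (fatty acid synthase) rose in 11 and fell in 1. At the other end, Tmem97, which encodes a sterol-binding membrane protein, rose in none and fell in 7, Mvk (mevalonate kinase) rose in 1 and fell in 7, Ebp (a sterol isomerase) rose in 1 and fell in 7, and Scap rose in none and fell in 8. After centring, described next, the 6 members at the top were unchanged, while Tmem97 rose in 2 and fell in 3, Mvk rose in 2 and fell in 5, Ebp rose in 2 and fell in 3, and Scap rose in none and fell in 3. Each of these comparisons has its own untreated libraries. How many of all genes rose or fell in as many comparisons was not counted, so these counts have no share of all genes beside them.

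**Figure D1:**
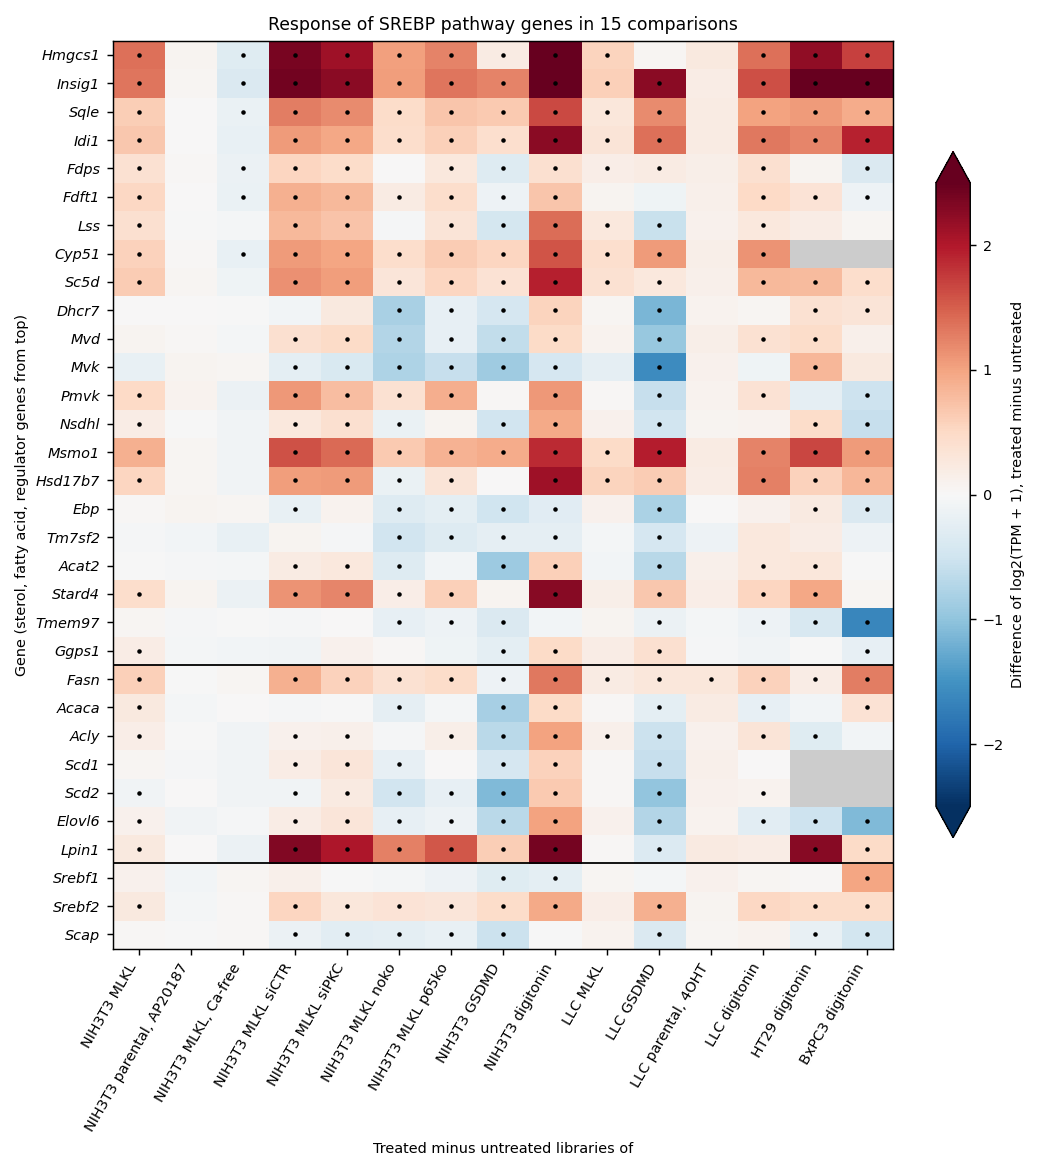
Heat map of the difference of log2(TPM + 1), treated minus untreated, for 32 genes (rows: sterol, fatty acid and regulator genes, split by lines) in 15 comparisons (columns). Red is higher and blue lower in treated cells, dots mark adjusted p under 0.05, grey has no value, and the scale ends at 2.5 in each direction. The rows of Insig1, Sqle, Idi1, Sc5d and Msmo1 are red with a dot in all 12 permeabilization columns.

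In 8 comparisons the median log2 difference over all genes was under -0.1: -0.19 for siCTR, -0.14 for siPKC, -0.22 for noko, -0.19 for p65ko, -0.29 for NIH3T3 GSDMD, -0.25 for LLC GSDMD, -0.16 for HT29 and -0.37 for BxPC3. Counts after centring each library on its median are given beside the others for these. Shares of all genes are without centring unless said otherwise, and centring moves them too. For digitonin in both human lines the share of all genes that rose went from 10% to 21.2%. For GSDMD in both mouse lines the share that rose went from 14.4% to 24.7%, and the share that fell from 45.5% to 28.5%.

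Dimerization of MLKL for 1 h raised most sterol genes in NIH3T3 cells, and no member passed in parental cells given the same agent. Of the 32 members 21 rose and 1 fell with AP20187, while 15.8% of 11644 tested genes rose and 16.5% fell. Among the sterol genes 15 of 22 rose and none fell, with a median log2 difference of 0.42, against -0.02 over all tested genes, and 5 of 7 fatty acid genes rose and 1 fell, with a median of 0.16. Hmgcs1 had 378 and 362 TPM with AP20187, against 142 and 140 TPM untreated (log2 difference 1.39, SE 0.038, adjusted p = 2.45e-17). Insig1 had 455 and 440 TPM with AP20187, against 174 and 176 TPM untreated (1.35, SE 0.025). The treated libraries were above the untreated ones for both genes. Msmo1 (log2 difference 0.89), Idi1 (0.67), Sc5d (0.64), Sqle (0.62) and Fasn (0.59) rose less. Tmem97, Ebp, Dhcr7 (the last reductase of cholesterol synthesis), Acat2 (acetoacetyl-CoA thiolase), Tm7sf2 (a sterol reductase) and Mvd (mevalonate diphosphate decarboxylase) did not pass, with log2 differences between -0.02 and 0.07, but Mvd passed without AP20187 replicate 1 (0.19, adjusted p = 0.0215). The member that fell was Scd2, a stearoyl-CoA desaturase, with 471 and 482 TPM with AP20187, against 499 and 510 TPM untreated (-0.08, adjusted p = 0.0385). It did not pass with no filter (adjusted p = 0.0507) or with the libraries of the comparison alone (0.176), nor when AP20187 replicate 1 or either untreated library was left out (0.0615 to 0.218).

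In parental NIH3T3 cells AP20187 left all 32 members under the threshold, where 0.0174% of 11504 tested genes rose and 0.287% fell. Insig1 had 335 and 324 TPM with AP20187, against 318 and 320 TPM untreated. The response of MLKL cells exceeded that of parental cells in 20 of 32 members and was lower in none, while 12.4% of all genes had a higher and 8.1% a lower response. For Hmgcs1 the responses differed by 1.31 (SE 0.054, adjusted p = 5.82e-14) and for Insig1 by 1.30.

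Without calcium in the medium no sterol gene rose. None of the 32 members rose and 6 fell, all sterol genes, where 2.35% of 11574 tested genes rose and 3.46% fell. After centring 11 fell, and on the libraries of the comparison alone 1 fell, Insig1. Insig1 had 153 and 154 TPM with AP20187, against 198 and 195 TPM untreated (log2 difference -0.35, SE 0.025, adjusted p = 1.18e-08). Hmgcs1 had 80.5 and 76.6 TPM with AP20187, against 97.8 and 96.4 TPM untreated (-0.30). The treated libraries lay below the untreated ones for both. Sqle, Cyp51, Fdft1 (squalene synthase) and Fdps (farnesyl diphosphate synthase) fell by 0.19 or less on the log2 scale, Cyp51 and Fdps not passing without any 1 of the 4 libraries, and no fatty acid gene passed. The response without calcium was lower than that with calcium in 19 members, 15 of them sterol genes, and higher in none, while 11.1% of all genes had a lower and 10.8% a higher response. Insig1 differed by -1.70 (SE 0.035), Hmgcs1 by -1.69, Msmo1 by -0.99 and Fasn by -0.55. Srebf2 had 110 and 118 TPM with AP20187 in calcium-free medium, against 111 and 110 TPM untreated, and its responses with and without calcium were not shown to differ (-0.20, adjusted p = 0.0875), but they differed without AP20187 replicate 1 in complete medium (-0.30, adjusted p = 0.00712).

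**Figure D2:**
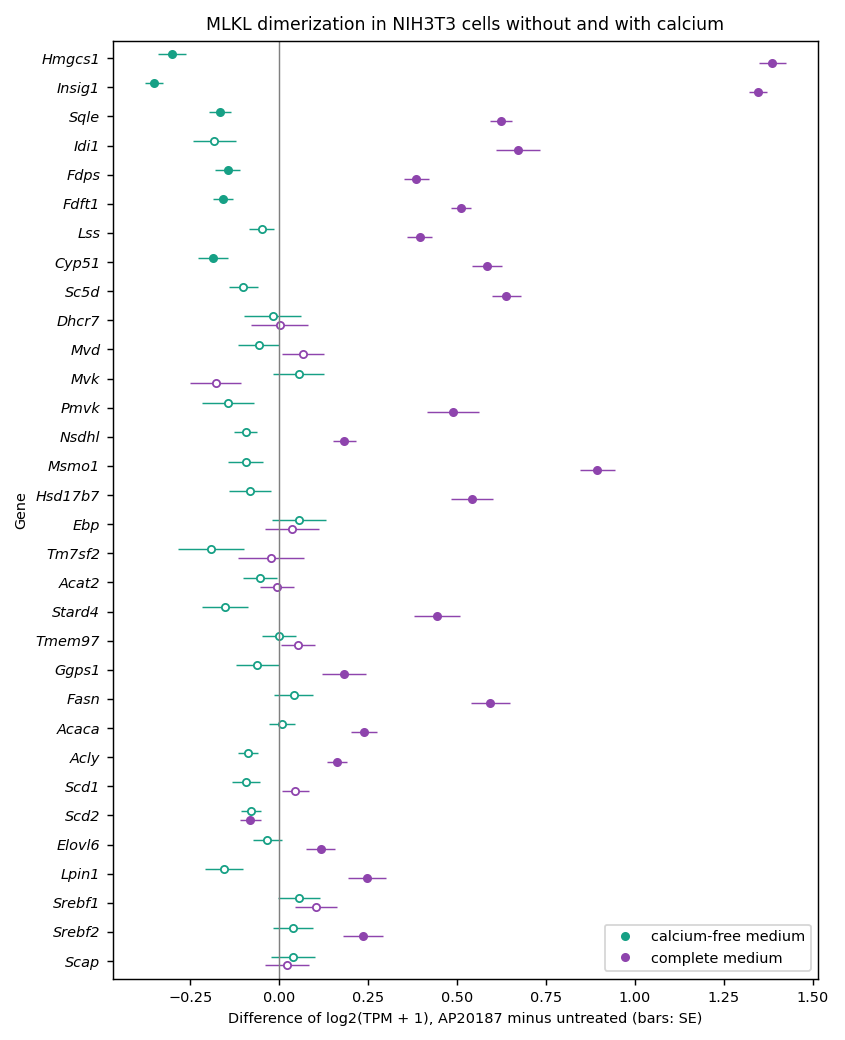
Difference of log2(TPM + 1), AP20187 minus untreated, of 32 genes in NIH3T3 MLKL cells in calcium-free (green) and complete (purple) medium, with SE bars; filled points passed adjusted p under 0.05. Insig1 lies at -0.35 without and 1.35 with calcium.

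Untreated MLKL cells already differed by medium. In calcium-free medium 9 members were higher and 6 lower than in complete medium, where 8.62% of 11587 tested genes were higher and 27.8% lower, and after centring 18 were higher and 3 lower. Without replicate 1 of the untreated cells in complete medium 5 were higher. Lpin1, which encodes a phosphatidate phosphatase, had 8.38 and 7.56 TPM in calcium-free medium, against 14.0 and 14.8 TPM in complete medium (log2 difference -0.78). Hmgcs1 was lower by 0.53 on the log2 scale there, while Fasn was higher (0.36).

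In the siRNA experiment the rise was larger than in the MLKL cells described above. With AP20187 22 members rose and 4 fell in siCTR cells, where 13.8% of 11410 tested genes rose and 51.8% fell, and 27 rose and 0 fell after centring. On the libraries of the comparison alone 1 fell. Sterol genes had a median log2 difference of 0.85. Insig1 had 542 and 551 TPM with AP20187, against 105 and 100 TPM untreated (2.40, SE 0.025), and Hmgcs1 had 461 and 449 TPM, against 88.0 and 84.8 TPM untreated (2.38). Lpin1 had 34.0 and 32.8 TPM with AP20187, against 5.78 and 6.10 TPM untreated (2.31, SE 0.053), whereas in the MLKL cells of the first experiment it had 16.8 and 17.7 TPM, against 14.0 and 14.8 TPM untreated (0.25). The siCTR response exceeded the MLKL response in 18 members and was lower in 2, while 7.32% of all genes had a higher and 36.3% a lower response, and for Lpin1 it did so by 2.06 (SE 0.075, adjusted p = 2.46e-14). Untreated siCTR cells had less of 16 and more of 5 members than untreated MLKL cells (23.4% of 11576 genes lower, 22.7% higher), and with those libraries alone none was higher. This comparison and that of the responses join libraries of different experiments and were added after values were seen.

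In siPKC cells most members rose as well. With AP20187 23 members rose and 2 fell, where 10.6% of 11308 tested genes rose and 37.6% fell, and 27 rose and 0 fell after centring. Insig1 had 355 TPM in the 1 treated library, against 73.1 and 73.3 TPM untreated (2.26, SE 0.030), and the spread of this library was taken from the other groups. The response of siPKC cells was lower than that of siCTR cells in 4 members (Hmgcs1 by -0.26, Insig1 by -0.14, Fasn by -0.32 and Lpin1 by -0.28) and higher in 1, Scd2 (0.30), while 3.36% of all genes had a lower and 5.06% a higher response. None of the 5 passed on those groups' libraries alone, Fasn, Insig1 and Lpin1 each did not pass without 1 of several libraries, among them untreated siPKC replicate 1, and after centring 10 were lower. Untreated siPKC cells had more of 8 and less of 12 members than untreated siCTR cells (23.8% of 11533 genes higher, 21.8% lower), with Insig1 at 73.1 and 73.3 TPM, against 105 and 100 TPM (-0.48). On the libraries of the comparison alone these counts were 4 and 6, and without either siPKC library 5 were higher.

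Digitonin raised most sterol genes and all 7 fatty acid genes in NIH3T3 cells. Of the 32 members 26 rose and 4 fell, where 39.4% of 11330 tested genes rose and 34.2% fell, and 14 members were at least 2-fold higher. Among sterol genes 18 of 22 rose and 3 fell (median log2 difference 1.02, against 0.02 over all tested genes), and all 7 fatty acid genes rose (median 1.00). Hmgcs1 had 577 and 597 TPM with digitonin, against 67.5 and 66.1 TPM untreated (3.12, SE 0.038, adjusted p = 2.47e-23). Insig1 had 729 and 745 TPM with digitonin, against 104 and 107 TPM untreated (2.80). Lpin1 had 28.4 and 29.7 TPM with digitonin, against 4.81 and 4.59 TPM untreated (2.40). No library of one group reached into the other for these genes. Stard4, a sterol transfer protein gene, rose by 2.27, Idi1 by 2.25 and Hsd17b7, a sterol ketone reductase gene, by 2.12 on the log2 scale. The 4 that fell were Mvk (-0.42), Ebp (-0.28), Srebf1 (-0.24) and Tm7sf2 (-0.22). Tm7sf2 did not pass with no filter (adjusted p = 0.0557), with the libraries of the comparison alone (0.113) or without either digitonin library, and without untreated replicate 1 neither Tm7sf2 (-0.07) nor Ebp (-0.21, adjusted p = 0.0523) passed. Fasn rose by 1.31, Elovl6 (a fatty acid elongase) by 1.01, Acly (ATP citrate lyase) by 1.00 and Scd2 by 0.65 on the log2 scale.

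With GSDMD in the same cell line Insig1 and Msmo1 rose, Hmgcs1 rose little, and Scd2, Acat2 and Mvk fell. With 4OHT 9 members rose and 20 fell, where 19.9% of 11632 tested genes rose and 58.6% fell, and after centring 14 rose and 12 fell. Of the 22 sterol genes 7 rose and 12 fell (11 and 6 after centring), and of the 7 fatty acid genes 1 rose and 6 fell (2 and 5 after centring). Insig1 had 267 and 262 TPM with 4OHT, against 113 and 110 TPM untreated (1.24, SE 0.025), and Msmo1 had 442 and 422 TPM, against 231 and 221 TPM untreated (0.93). Hmgcs1 had 119 and 118 TPM with 4OHT, against 108 and 98.7 TPM untreated (0.20, adjusted p = 8.80e-05). Its groups did not overlap, but the rise was small beside that with digitonin. Scd2 had 263 and 267 TPM with 4OHT, against 588 and 562 TPM untreated (-1.11, SE 0.029). Acat2 (-0.92), Mvk (-0.88) and Acaca, the acetyl-CoA carboxylase gene (-0.82), fell by more than the median of all genes. Lpin1 was the fatty acid gene that rose (0.61).

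**Figure D3:**
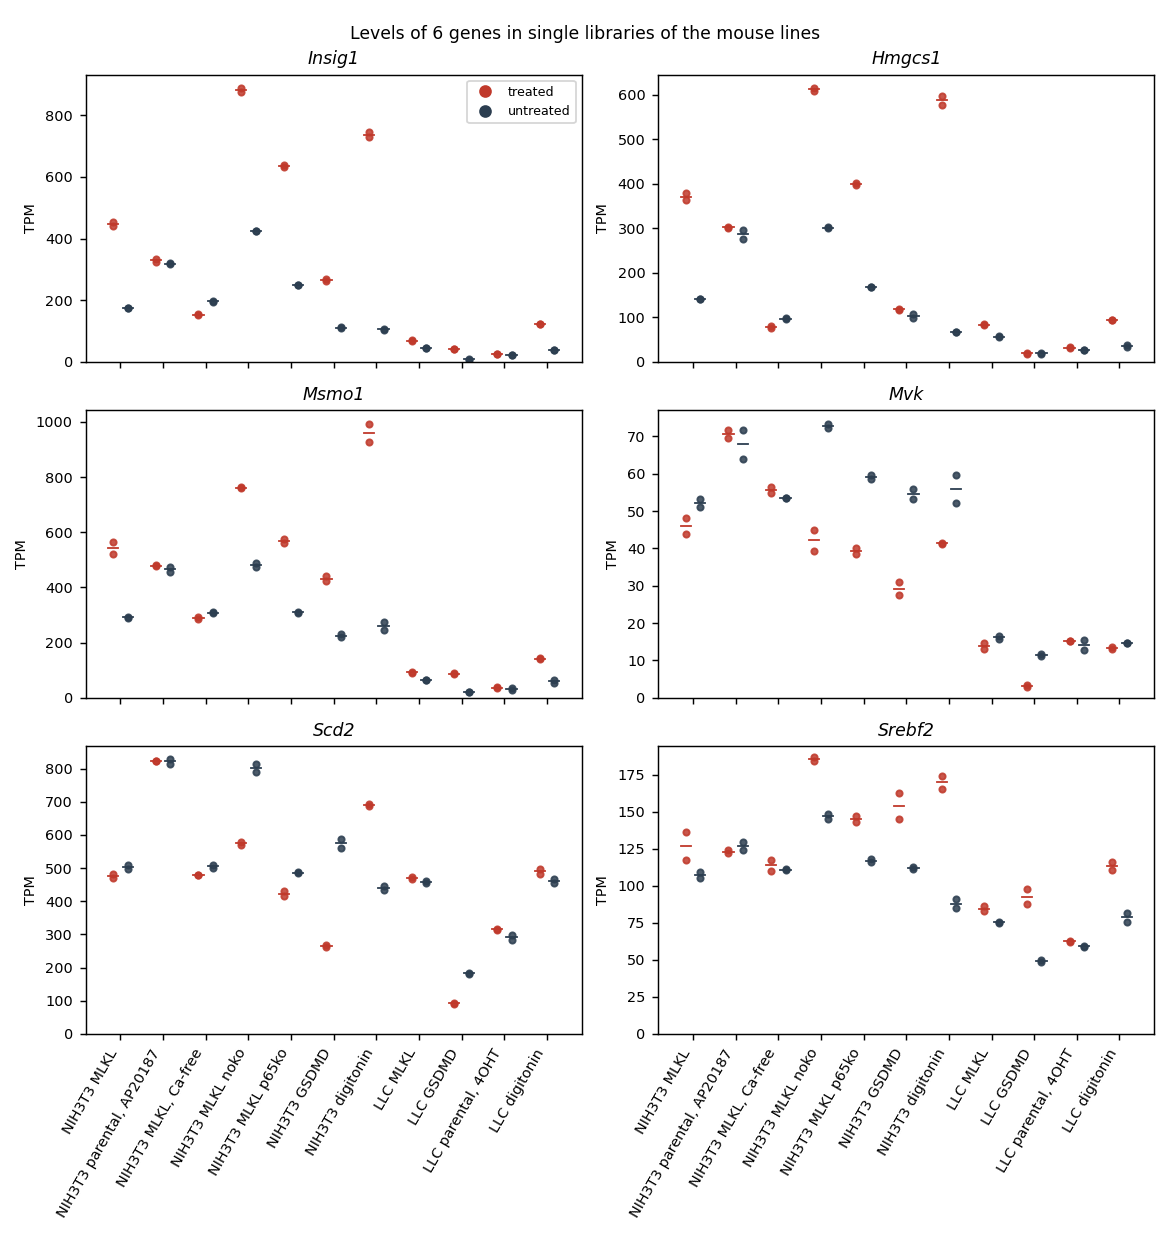
TPM of 6 genes in single libraries of mouse cells, treated (red, left of each pair) and untreated (dark, right), with lines at the group means; the siRNA groups are not drawn. Hmgcs1 with digitonin in NIH3T3 cells stands at 577 and 597 TPM, and with 4OHT in GSDMD cells at 119 and 118 TPM beside untreated libraries at 108 and 98.7 TPM.

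The responses to digitonin and to the pore proteins were set against each other by tests of their difference, in which agent, exposure time and experiment cannot be told apart. In NIH3T3 cells the digitonin response exceeded the GSDMD response in 29 of 32 members and was lower in none (53.7% of 11930 genes higher, 11.3% lower), and after centring it was higher in 25 and lower in 2. Hmgcs1 differed by 2.92 (SE 0.054), Hsd17b7 by 2.10, Scd2 by 1.76 and Insig1 by 1.55. The digitonin response exceeded the MLKL response in 25 members and was lower in 2 (32.3% of 11842 genes higher, 20.6% lower), with 7 of 7 fatty acid genes higher, and after centring it was higher in 23 and lower in 5. The GSDMD response was higher than the MLKL response in 2 members and lower in 26 (14.8% of 12054 genes higher, 49.7% lower), and after centring it was higher in 6 and lower in 16. Hmgcs1 was lower by 1.19 on the log2 scale in that last comparison and Scd2 by 1.03. For Sqle (0.03), Msmo1 (0.04) and Cyp51 (-0.05) no difference between the GSDMD and MLKL responses was shown, with SEs of 0.043, 0.070 and 0.060, but after centring the GSDMD response was higher in all 3 (0.32, 0.34 and 0.24).

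In LLC cells GSDMD also raised some sterol genes while most fatty acid genes fell. With 4OHT 12 members rose and 17 fell, where 27.9% of 10976 tested genes rose and 54% fell (13 and 13 after centring). Insig1 had 41.9 and 40.9 TPM with 4OHT, against 8.59 and 7.35 TPM untreated (2.25, SE 0.054, adjusted p = 1.48e-11), and Msmo1 had 86.5 and 88.5 TPM, against 20.9 and 22.6 TPM untreated (1.96). Idi1 (1.38), Sqle (1.19) and Cyp51 (1.06) were also more than 2-fold higher. Hmgcs1 had 20.7 and 18.8 TPM with 4OHT, against 20.4 and 17.8 TPM untreated (0.04, SE 0.068, adjusted p = 0.557), and its groups overlapped, but it passed after centring (0.21). Mvk had 3.03 and 3.40 TPM with 4OHT, against 11.2 and 11.8 TPM untreated (-1.57), Dhcr7 fell by 1.14 and Mvd by 0.95 on the log2 scale. Of the 7 fatty acid genes 1 rose, Fasn, and 6 fell (1 and 4 after centring), with Scd2 at 93.5 and 90.7 TPM, against 185 and 181 TPM untreated (-0.98). Across both lines 5 fatty acid genes (Acaca, Acly, Scd1, Scd2 and Elovl6) fell with GSDMD in each, as did 9 sterol genes, while 45.5% of all genes tested in both did so. In each 6 sterol genes rose, while 14.4% of all genes did. After centring 4 fatty acid and 6 sterol genes fell in both (28.5% of all genes) and 9 sterol genes rose in both (24.7%). In parental LLC cells 4OHT raised 1 member, Fasn, with 66.7 and 68.0 TPM, against 55.9 and 53.7 TPM untreated (0.29, adjusted p = 0.00319), and lowered none, where 0.882% of 11110 tested genes rose and 0.045% fell. It did not pass on the libraries of the comparison alone (adjusted p = 0.0991) or without 4OHT replicate 2 (0.0671). Among members that did not pass, Hmgcs1 (0.24), Idi1 (0.21) and Insig1 (0.19) had treated libraries above the untreated ones. The median over all tested genes was 0.03. Only Tm7sf2 (-0.12), Tmem97 (-0.05) and Ggps1 (-0.03) had differences below 0. No NIH3T3 cells without the GSDMD construct were given 4OHT. The GSDMD response of LLC cells exceeded the parental response in 9 members and was lower in 15 (22.5% of 11506 genes higher, 49.4% lower), and for Fasn no difference was shown (-0.01, SE 0.050), though after centring the GSDMD response was higher (0.20).

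MLKL gave a small sterol response in LLC cells. Of the 32 members 12 rose and none fell, 10 of the 12 being sterol genes, where 5.56% of 11166 tested genes rose and 2.17% fell. Without AP20187 replicate 2 or untreated replicate 1 only 7 rose, and without either other library 9. Insig1 had 68.4 and 70.4 TPM with AP20187, against 46.0 and 45.5 TPM untreated (0.59, SE 0.054), Hsd17b7 had 10.7 TPM in each treated library, against 6.85 and 6.93 TPM untreated (0.57), and Hmgcs1 had 82.3 and 85.3 TPM, against 57.8 and 55.5 TPM untreated (0.56). No member was 2-fold higher.

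Set against MLKL in the same line, the GSDMD response was higher in 7 members and lower in 16 (22.2% of 11460 genes higher, 47.7% lower), and after centring higher in 11 and lower in 14.

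In the LLC libraries labelled as having no construct, digitonin raised 19 members and lowered 3, where 20.3% of 11112 tested genes rose and 32.2% fell. On the libraries of the comparison alone 1 fell. Insig1 had 122 and 123 TPM with digitonin, against 39.98 and 38.8 TPM untreated (1.61, SE 0.054), and Hmgcs1 had 95.1 and 93.4 TPM, against 37.7 and 33.6 TPM untreated (1.38). Of the 7 fatty acid genes 3 rose and 2 fell, with Fasn higher (0.58) and Elovl6 (-0.26) and Acaca (-0.20) lower. The digitonin response was higher than the GSDMD response in 21 members and lower in 4 (43.7% of 11393 genes higher, 22.4% lower), and after centring higher in 18 and lower in 9. Against the MLKL response it was higher in 15 members and lower in 4 (12.1% of 11505 genes higher, 18.8% lower). Against the GSDMD response Mvk differed by 1.46, Hmgcs1 and Mvd by 1.34 each and Scd2 by 1.07, while Msmo1 (-0.72) and Insig1 (-0.63) answered less to digitonin than to GSDMD. Whether these libraries, with their Gsdmd level, would match cells without the construct was not tested.

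With digitonin 11 of the 29 human members rose in both HT29 and BxPC3 cells, INSIG1 the furthest in each. These were 37.9% of the members, while 10% of all genes tested in both lines rose in both. Of the members that rose in HT29 cells they were 61.1%, near the 59.5% found over all genes. Of those that rose in BxPC3 cells they were 84.6%, against 49% over all genes. After centring 22 members (75.9%) and 21.2% of all genes rose in both. In HT29 cells 18 of 29 members rose and 4 fell, where 16.6% of 12193 tested genes rose and 44% fell (24 and 2 after centring). INSIG1 had 204 and 201 TPM with digitonin, against 19.2 and 19.5 TPM untreated (3.32, SE 0.053, adjusted p = 1.51e-07). LPIN1 had 24.9 and 24.0 TPM with digitonin, against 4.81 and 3.79 TPM untreated (2.27), and HMGCS1 had 238 and 234 TPM, against 49.4 and 50.7 TPM untreated (2.21). MSMO1 (1.67), IDI1 (1.21) and MVK (0.83) also rose, and ELOVL6 fell by 0.52 and TMEM97 by 0.41 on the log2 scale, TMEM97 not passing after centring (-0.22). In BxPC3 cells 13 members rose and 9 fell, where 23.5% of 13566 tested genes rose and 56.8% fell, and after centring 23 rose and 3 fell. INSIG1 had 714 and 775 TPM with digitonin, against 35.0 and 32.3 TPM untreated (4.43, SE 0.053), 21.5-fold higher on the scale used. IDI1 had 181 and 198 TPM, against 48.4 and 50.1 TPM untreated (1.92), HMGCS1 had 281 and 308 TPM, against 90.2 and 88.9 TPM untreated (1.71), and FASN had 104 and 103 TPM, against 41.4 and 42.6 TPM untreated (1.28). TMEM97 had 5.44 and 7.03 TPM with digitonin, against 20.6 and 22.01 TPM untreated (-1.63), and ELOVL6 fell by 1.11 on the log2 scale. CYP51A1 rose by 1.05 in HT29 and by 0.32 in BxPC3 cells, and SCD was higher in HT29 (0.11) and lower in BxPC3 cells (-0.17). The BxPC3 response exceeded the HT29 response in 6 members and was lower in 16 (20.6% of 14393 genes higher, 43.5% lower), and after centring it was higher in 9 and lower in 10. It was higher for INSIG1 (1.11), FASN (1.10), SREBF1 (0.95) and IDI1 (0.71) and lower for LPIN1 (-1.80), TMEM97 (-1.23) and NSDHL, a sterol dehydrogenase gene (-1.03).

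Untreated p65ko cells had less of nearly every member than untreated noko cells. Of the 32 members 28 were lower and 2 higher, where 15.2% of 12000 tested genes were lower and 31.8% higher. Sterol genes had a median log2 difference of -0.73 (20 of 22 lower, 1 higher) and fatty acid genes of -0.59 (7 of 7 lower), against 0.08 over all tested genes. Tm7sf2 had 7.15 and 7.22 TPM in p65ko, against 20.6 and 21.0 TPM in noko cells (-1.41, SE 0.093), Pmvk (phosphomevalonate kinase) had 42.2 and 44.9 TPM, against 105 and 104 TPM (-1.25), and Lss (lanosterol synthase) had 33.9 and 33.2 TPM, against 79.0 and 78.7 TPM (-1.21). Insig1 had 250 and 251 TPM in p65ko, against 425 and 426 TPM in noko cells (-0.76). The groups did not overlap for these genes. Ggps1, geranylgeranyl diphosphate synthase, was higher in p65ko, with 28.2 and 28.8 TPM, against 18.5 and 19.1 TPM (0.58). Srebf1, the other gene that was higher (0.15, adjusted p = 0.0490), did not pass under 5 of the alternatives, centring (0.06) among them, nor without either noko library or p65ko replicate 2. Srebf2 was lower by 0.33 on the log2 scale.

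Set beside the untreated MLKL cells of the first experiment, p65ko cells were not lower as a group. This comparison was added after values were seen. Untreated noko cells had more of 30 of 32 members than the untreated MLKL cells of the first experiment and less of none (27.4% of 11703 genes higher, 16.4% lower), with a median log2 difference of 0.91 for sterol genes. Insig1 had 425 and 426 TPM in noko, against 174 and 176 TPM in MLKL cells (1.27). Untreated p65ko cells had more of 17 and less of 6 members than the same MLKL cells (42.2% of 11965 genes higher, 17.8% lower), with a median over all members of 0.14 and over all tested genes of 0.13. After centring 9 were higher and 11 lower. Lss had 33.9 and 33.2 TPM in p65ko, against 32.6 and 33.6 TPM in MLKL cells, and Scd2 had 484 and 489 TPM, against 499 and 510 TPM, and neither passed, but after centring both were lower (-0.14 and -0.21). Genotype and experiment cannot be told apart here.

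With AP20187 14 of the 22 sterol genes had a higher response in p65ko than in noko cells, some through a larger rise and some through a smaller fall. In p65ko cells 17 members rose and 9 fell, where 9.01% of 11987 tested genes rose and 50.4% fell, and after centring 22 rose and 1 fell. Without any 1 of the 4 libraries 4 or 5 fell. In noko cells 13 rose and 14 fell, where 10.6% of 11682 tested genes rose and 55.6% fell, and after centring 19 rose and 4 fell. Insig1 had 631 and 639 TPM with AP20187 in p65ko cells, against 250 and 251 TPM untreated (1.34), and 888 and 875 TPM with AP20187 in noko cells, against 425 and 426 TPM untreated (1.05). The p65ko response exceeded the noko response in 18 members and was lower in none, while 2.35% of 12212 genes had a higher and 1.76% a lower response. Dhcr7 differed by 0.60, Mvd by 0.54, Pmvk by 0.53, Hsd17b7 by 0.48 and Insig1 by 0.29 (SE 0.035, adjusted p = 2.30e-05). The levels after AP20187 nevertheless stayed lower in p65ko cells for Insig1 and for Hmgcs1, which had 397 and 402 TPM, against 608 and 615 TPM in noko cells. In noko cells Mvk (-0.78), Dhcr7 (-0.80) and Mvd (-0.74) fell, and Lpin1 rose by 1.27. In p65ko cells Dhcr7 and Mvd fell as well (-0.20 each), but neither passed after centring (0.024 and 0.026) or without p65ko replicate 1 of either condition. Hsd17b7 rose in p65ko cells (0.32) and was lower with AP20187 in noko cells (-0.16), where it did not pass after centring (0.10) or without AP20187 replicate 1 or untreated replicate 2. The noko response was higher than that of the MLKL cells of the first experiment in 1 member, Lpin1 (1.02), and lower in 27 (5% of 11933 genes higher, 39.6% lower), and after centring it was higher in 2 and lower in 7.

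**Figure D4:**
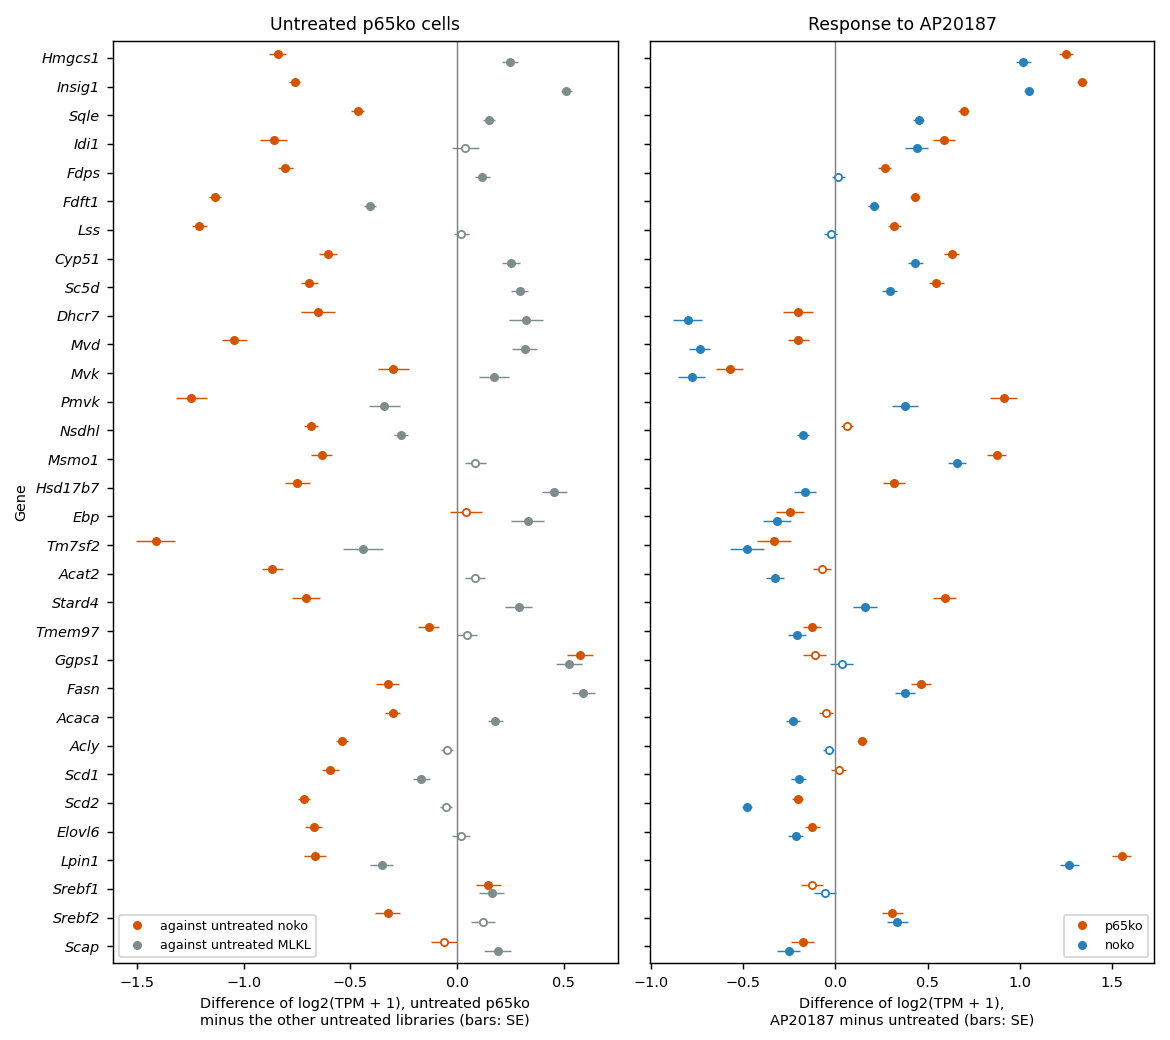
Log2(TPM + 1) differences with SE bars for 32 genes. Left, untreated p65ko minus untreated noko (orange) and minus untreated MLKL cells (grey); right, AP20187 minus untreated in p65ko (orange) and noko (blue) cells; filled points passed adjusted p under 0.05. Tm7sf2 lies at -1.41 against noko and at -0.44 against MLKL cells.

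Levels in untreated NIH3T3 cells varied as widely as many responses. MLKL cells had less of 31 of 32 members than parental cells and more of none (29.5% of 11655 genes lower, 22.3% higher), with a median log2 difference of -0.80 for sterol genes. GSDMD cells had less of 28 and more of 3 (25.5% of 11620 genes lower, 29.7% higher), with a sterol median of -0.92. Insig1 had 174 and 176 TPM in MLKL cells and 113 and 110 TPM in GSDMD cells, against 318 and 320 TPM in parental cells. The untreated NIH3T3 cells of the digitonin experiment carry the same label as the parental cells yet had less of all 32 members (57.7% of 11546 genes lower, 18.3% higher), and after centring 23 were lower and 4 higher. Hmgcs1 had 67.5 and 66.1 TPM there, against 297 and 277 TPM in the parental cells given no AP20187 (-2.09, SE 0.038). The level of Hmgcs1 with digitonin, 577 and 597 TPM, was above both sets. Over the 9 untreated NIH3T3 groups the highest level stood in noko cells for 12 and in parental cells for 8 of the 22 sterol genes. How many of all genes had their highest level in these groups was not counted. The labels give no culture date or density for these groups.

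**Figure D5:**
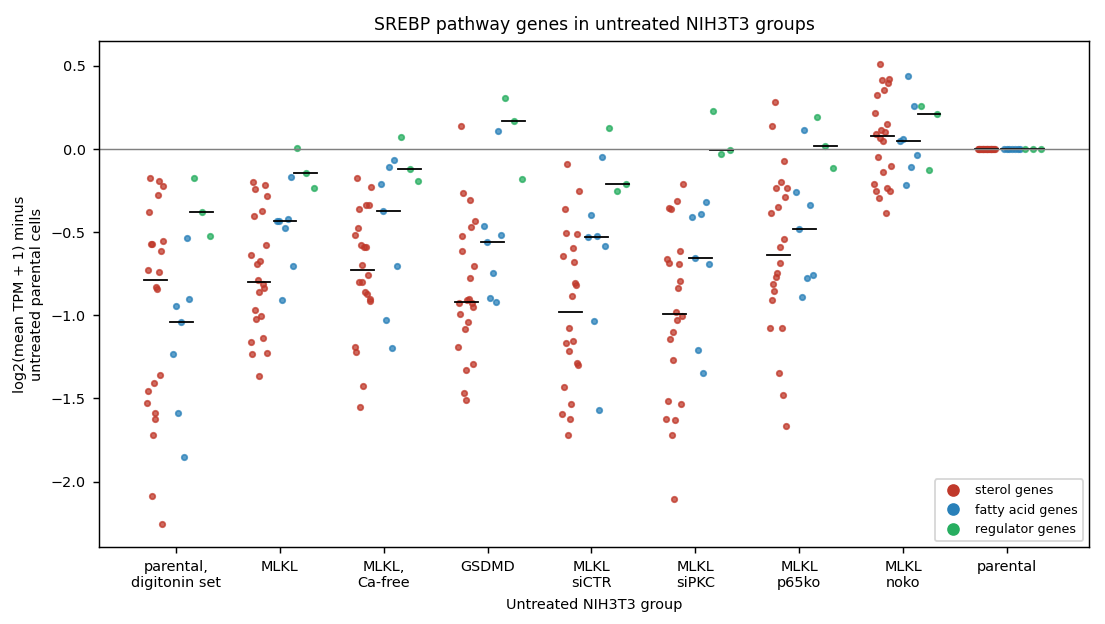
Log2(mean TPM + 1) of each gene in 9 untreated NIH3T3 groups minus its value in untreated parental cells (at 0, far right); points are genes coloured by list and lines are medians. Sterol genes have medians of -0.92 in GSDMD, -0.80 in MLKL and 0.08 in noko cells.

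Untreated LLC groups took other directions. MLKL cells had more of 24 and less of 2 members than parental cells (26.7% of 11236 genes higher, 30.8% lower), with Cyp51 at 41.3 and 41.1 TPM, against 16.6 and 18.2 TPM (1.20). GSDMD cells had more of 5 and less of 21 (26.2% of 11178 genes higher, 35.4% lower), and with quantile normalization less of 13. Among them Insig1 had 8.59 and 7.35 TPM, against 22.4 and 23.0 TPM (-1.41), while Fasn (0.89), Acly (0.66) and Acaca (0.63) were higher. The untreated libraries of the LLC digitonin experiment had more of 18 and less of 4 members than parental cells (26.2% of 11199 genes higher, 40.4% lower), with Insig1 at 39.98 and 38.8 TPM, against 22.4 and 23.0 TPM (0.77). Their Insig1 level was above the 8.59 and 7.35 TPM of untreated LLC GSDMD cells, whereas their Gsdmd level was near that of those cells.

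Of the regulators, Srebf2 rose in most comparisons and Srebf1 passed in few. Srebf2 rose in 11 of the 12 permeabilization comparisons, with log2 differences between 0.17 and 0.94 over the 12. It had 174 and 166 TPM with digitonin in NIH3T3 cells, against 90.8 and 84.8 TPM untreated (0.94), and 87.9 and 97.4 TPM with 4OHT in LLC GSDMD cells, against 48.7 and 49.7 TPM untreated (0.90). Srebf1 passed in 3 comparisons, lower with GSDMD (-0.30, and -0.01 after centring, which did not pass) and digitonin (-0.24) in NIH3T3 cells and higher with digitonin in BxPC3 cells, where SREBF1 had 117 and 113 TPM, against 57.0 and 58.2 TPM untreated (0.98). Scap fell in 8 comparisons and after centring in 3, and with GSDMD in NIH3T3 cells it fell by 0.54 on the log2 scale.

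Other genes of the pathway were taken from a list of 26, of which 25 were found in the mouse table: 3 of SREBP processing, 14 of synthesis and 9 of transport and of the liver X receptor. Of 12 tested synthesis genes 11 rose and none fell with digitonin in NIH3T3 cells (39.4% and 34.2% of all genes, and 9 rose after centring), with Acsl3 (acyl-CoA ligase) at 89.6 TPM, against 30.2 TPM untreated (1.54). With GSDMD in NIH3T3 cells 4 of these 12 rose and 8 fell (19.9% and 58.6% of all genes), and after centring 5 rose and 6 fell. Gpam, a glycerol-phosphate acyltransferase gene, had 3.19 TPM, against 10.2 TPM untreated (-1.41). In LLC GSDMD cells 3 rose and 7 fell (27.9% and 54% of all genes), and after centring 5 rose and 5 fell, with Gpam at 3.99 TPM, against 14.3 TPM untreated (-1.62). With MLKL in NIH3T3 cells 3 of these 12 rose and 1 fell, while 1838 of 11644 genes rose and 1916 fell. Mbtps1, the first of the proteases that cut SREBP, fell in 10 of the 12 permeabilization comparisons, also after centring. Among them were GSDMD in NIH3T3 (-0.61) and LLC cells (-0.57), where 58.6% and 54% of all genes fell. Its furthest fall was with digitonin in BxPC3 cells (-1.06), where 7709 of 13566 genes fell. How many of all genes fell in as many comparisons was not counted. The other processing genes went both ways. Mbtps2, the second protease, had 14.4 and 14.6 TPM with digitonin in NIH3T3 cells, against 10.5 and 11.6 TPM untreated. In NIH3T3 GSDMD cells it had 17.9 and 17.1 TPM with 4OHT, against 29.3 and 29.2 TPM untreated. Insig2 had 11.5 and 11.4 TPM with 4OHT in NIH3T3 GSDMD cells, against 10.8 and 9.95 TPM untreated. In LLC GSDMD cells it had 11.8 and 11.5 TPM, against 18.3 and 20.7 TPM untreated. In BxPC3 cells MYLIP, which encodes a ligase that degrades lipoprotein receptors, had 62.0 TPM with digitonin, against 6.95 TPM untreated (2.98). In untreated p65ko cells 1 of 12 synthesis genes was higher and 9 lower than in noko cells, where 3822 of 12000 genes were higher and 1822 lower. Fads1, a fatty acid desaturase gene, had 129 TPM in p65ko, against 195 TPM in noko cells (-0.59).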

How the data were processed

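RNA-seq values were deposited by the authors as TPM for each gene and library, quantified with Salmon on mm10 for mouse and hg19 for human, per the submitters' processing notes; the sources used here give no versions. TPM holds no depth, so read depth is unknown and no counting interval was computed. The TPM of a library summed to 999910 to 999989 in the mouse table and to 999999 or more in the human table. Values were taken as log2(TPM + 1), genes with at least 1 TPM in at least 2 libraries of a comparison were kept, and limma 3.58.1 with a trend (R 4.3.3) was fitted to each line with all groups of that line, HT29 and BxPC3 in 1 model, with Benjamini-Hochberg adjustment within each comparison and a threshold of 0.05. Responses were compared by the difference of their contrasts. The fit was tested on simulated data. Centring shifts each library by its median over the genes. The members, the gene lists and the comparisons were chosen with earlier results of these data known, and all members of a list were counted, with the text naming members by their place in the 12 permeabilization comparisons and by the size of their change. Promoter windows came from RefSeq on GRCm38.p6. Alternatives were a pseudocount of 0.1, no filter, quantile normalization, median centring, the libraries of the comparison alone, each library left out in turn and a block for the replicate number.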

Additional observations from a re-analysis of the deposited data

Results flagged for a closer look

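Responses differed by a test of the difference itself in 8 pairs of groups. Of the members, 20 differed between MLKL and parental NIH3T3 cells given AP20187 (2446 of 11931 genes). Between calcium-free and complete medium 19 differed (2593 of 11865 genes). Between siPKC and siCTR cells 5 differed (985 of 11689 genes), and between p65ko and noko cells 18 (502 of 12212 genes). Between the 4OHT responses of GSDMD and parental LLC cells 24 differed, but so did 8268 of 11506 genes. Between the digitonin responses of BxPC3 and HT29 cells 22 of 29 differed, as did 9220 of 14393 genes. Across experiments, 20 differed between siCTR cells and the MLKL cells of the first experiment (5166 of 11837 genes). Between noko cells and those MLKL cells 28 differed (5323 of 11933 genes). Both of these comparisons across experiments were added after values were seen.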

How the results depend on the processing

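Counts below are of members that rose or fell, or were higher or lower in differences and untreated comparisons, with the count of the report after each alternative value. Median centring gave 11 lower for MLKL in calcium-free medium (6), 0 for siCTR (4), 0 for siPKC (2), 4 for noko (14), 1 for p65ko (9), 12 lower and 14 higher for NIH3T3 GSDMD (20 and 9), 2 lower for HT29 (4) and 3 lower and 23 higher for BxPC3 (9 and 13). In untreated cells centring gave 1 higher for p65ko over noko (2), 3 lower and 18 higher for calcium-free medium (6 and 9), 1 lower for LLC MLKL cells (2), 11 lower and 9 higher for p65ko over MLKL cells (6 and 17) and 4 higher for the NIH3T3 cells of the digitonin experiment (0). In response differences centring gave 1 lower for MLKL minus parental (0), 10 lower for siPKC minus siCTR (4), 10 lower for BxPC3 minus HT29 (16), 5 lower for NIH3T3 digitonin minus MLKL (2), 2 lower for digitonin minus GSDMD (0), 16 lower and 6 higher for GSDMD minus MLKL (26 and 2), 9 lower for LLC digitonin minus GSDMD (4), 11 higher for LLC GSDMD minus MLKL (7), 0 lower for siCTR minus MLKL (2) and 7 lower and 2 higher for noko minus MLKL (27 and 1).

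Quantile normalization gave 1 lower for siCTR (4), 2 for p65ko (9), 5 lower and 21 higher for BxPC3 (9 and 13), 1 higher for untreated p65ko over noko (2), 13 lower for untreated LLC GSDMD cells (21), 11 higher for untreated p65ko over MLKL (17) and 3 higher for untreated siCTR over MLKL (5). In response differences it gave 1 lower for MLKL minus parental (0), 1 for siPKC minus siCTR (4), 10 for BxPC3 minus HT29 (16), 4 for digitonin minus MLKL (2), 2 for digitonin minus GSDMD (0) and 1 for siCTR minus MLKL (2). On the libraries of the comparison alone 0 fell for MLKL (1), 1 for calcium-free medium (6), 1 for siCTR (4) and 1 for LLC digitonin (3), and 0 rose for parental LLC cells (1). There 1 was higher for untreated p65ko over noko (2), 6 lower and 4 higher for siPKC over siCTR (12 and 8), 1 lower for LLC MLKL cells (2) and 0 higher for siCTR over MLKL (5), and among differences 0 were lower and 0 higher for siPKC minus siCTR (4 and 1), 1 lower for digitonin minus MLKL (2), 1 higher for GSDMD minus MLKL (2) and 2 lower for LLC digitonin minus MLKL (4). With no filter 0 fell for MLKL (1), and 1 was higher for untreated p65ko over noko (2) and 1 lower for untreated LLC MLKL cells (2). A pseudocount of 0.1 gave 1 higher for untreated p65ko over noko (2). The cause of these moves was not tested.

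Leaving out 1 library gave 7 to 9 higher for LLC MLKL (12), 0 to 1 for parental LLC (1), 0 to 2 lower for MLKL (1), 4 to 5 for p65ko (9), 1 to 3 for siCTR (4), 5 to 8 higher for untreated calcium-free medium (9), 1 to 2 for p65ko over noko (2), 3 to 5 for siCTR over MLKL (5), 5 to 9 for siPKC over siCTR (8) and 1 to 3 lower for LLC MLKL over parental (2). In differences it gave 0 to 1 lower for MLKL minus parental (0), 1 to 4 for digitonin minus MLKL (2), 2 to 4 for LLC digitonin minus MLKL (4), 1 to 3 for siCTR minus MLKL (2), 1 to 4 lower and 1 to 2 higher for siPKC minus siCTR (4 and 1), 1 to 2 higher for GSDMD minus MLKL (2) and 1 to 2 higher for noko minus MLKL (1). Where a group kept 1 library, it was assumed to vary like the others.

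The difference between replicates 1 and 2 in a treated group was set against that in its untreated group, gene by gene. These differences correlated at -0.0378 to 0.094 over 13 comparisons. The replicate numbers thus gave no sign of pairing, but a low correlation cannot exclude it. A replicate block gave 0 lower for MLKL (1) and 2 lower and 2 higher for siPKC minus siCTR (4 and 1), and moved no other count by over 1.5 times. No paired analysis was possible for LLC MLKL because both of its treated libraries carry the same number. Of single members named in the report, centring turned 6 values round: Dhcr7 (0.024, and 0.048 with quantile normalization) and Mvd (0.026) in p65ko cells, Hsd17b7 in noko cells (0.10), Fasn in the LLC GSDMD minus parental response (0.20), Cyp51 in GSDMD minus MLKL (0.24) and Lss in untreated p65ko over MLKL cells (-0.14, and -0.12 with quantile normalization). TPM gives no depth, which leaves the precision of low genes unknown.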
